A study of Mus musculus with 6 samples.

Results

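Broad promoters are taken here as listed start regions of capped RNA that are 60 bp wide or more. They are described in Ba/F3, a pro-B cell line from the mouse that becomes independent of its cytokine when given an oncogenic kinase. They were taken from the deposited peak list by position alone, as every peak whose end minus start is 60 or more outside chromosomes M and Y. This gave 7186 of 158966 listed peaks. A further 9 peaks on M and Y were as wide, but no peak there held a tag. Of the 7186, 4071 were measured, out of 19162 measured peaks in all. Measured means that a peak reached 1 CPM in at least 3 of the 6 libraries. Here 1 CPM is 1 tag for every 1000000 tags that the library held in listed peaks. The other 15091 measured peaks are the comparison throughout.

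The libraries were made by cap analysis of gene expression (CAGE), in which a tag is read from the 5′ end of a capped RNA and so gives the position of a transcription start. In 1 group of 3 libraries the cells carried FLT3-ITD, in which part of the receptor tyrosine kinase FLT3 is duplicated in tandem. The other group of 3, called the double mutant, had in addition D835Y, a change of 1 residue in the activation loop of that kinase. All libraries came from 1 cell line, labelled as pro-B cells of BALB/c origin and grown in the same serum-containing medium. Groups follow the titles, because a second label numbers the substituted residue differently in each double-mutant sample. The labels do not say whether replicates came from separate cultures or clones, so the p-values rest on the spread among these libraries alone, which may be technical. The peaks carry positions and no gene names. The labelled cell type was therefore not checked against markers, and promoters are named by position in the deposited coordinates, for which the mouse build named in the submitters' notes is mm9.

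As background, promoters of RNA polymerase II range from sharp to broad. Sharp promoters place most starts on 1 or a few neighbouring bases, often downstream of a TATA box, and are frequent among tissue-specific genes. Broad promoters scatter starts over many bases, usually lie in CpG islands, and serve many widely expressed genes. Sequence and gene function were not analysed here, so the width of the peak is the only feature of style used. That width is the one in the deposited list, and the spread of starts within a peak was not measured. Listed peaks can lie as close as 1 bp on the same strand, as at chr18:56867379-56867594. Whether width depends on how starts were divided into peaks was not tested.

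The libraries held 5884258 to 13977941 tags in the listed peaks, FLT3-ITD replicate 2 having the fewest and double-mutant replicate 2 the most. Tags outside the listed peaks, if any, are not in these counts or in the shares below. The value of 1 tag was 0.0715 to 0.170 CPM, and 0 tags in a library allow a level of up to 0.215 to 0.510 CPM, which is 3 tags. Such limits cover counting error only. CPM values give shares of the capped RNA of a culture, so less RNA per cell and fewer cells with a transcript cannot be told apart.

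Broad peaks were far more often in use than the rest of the list. Of the 7186, 2274 had no tag in any library, 841 had tags but stayed below the minimum, and 4071 (56.7%) were measured, against 10.0% of the 151501 other peaks outside M and Y. They made up 4.53% of the listed peaks but 21.2% of the measured ones. The share measured rose with width, from 3.42% of peaks of 1 to 10 bp to 32.3% at 41 to 59 bp, 54.9% at 60 to 79 bp and 62.9% at 100 to 149 bp, and was 52.7% among the 55 peaks of 150 bp or more. Of the measured broad peaks, 3789 (93.1%) reached 1 CPM in all 6 libraries, against 75.6% of other measured peaks. With the other peaks weighted to the same numbers per level of activity the value was 91.6%, so most of that gap went with level.

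Their typical level was several times that of other peaks, and their extremes were lower. The median of the mean level over the 6 libraries was 15.8 CPM (quartiles 5.51 and 40.2) for broad peaks and 4.34 CPM (quartiles 1.85 and 17.1) for others. Within the broad peaks the median rose from 13.6 CPM at 60 to 79 bp to 17.1 at 80 to 99 bp, 25.2 at 100 to 149 bp and 39.3 at 150 bp or more. Per base of width, however, the medians nearly coincided, at 0.205 CPM for broad and 0.203 CPM for other peaks. None of the 100 most active peaks was broad, while 232 of the 1000 most active were. The most active broad promoter ranked 134 among all measured peaks, at 1260 CPM, and the most active other peak reached 12297 CPM.

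**Figure D1:**
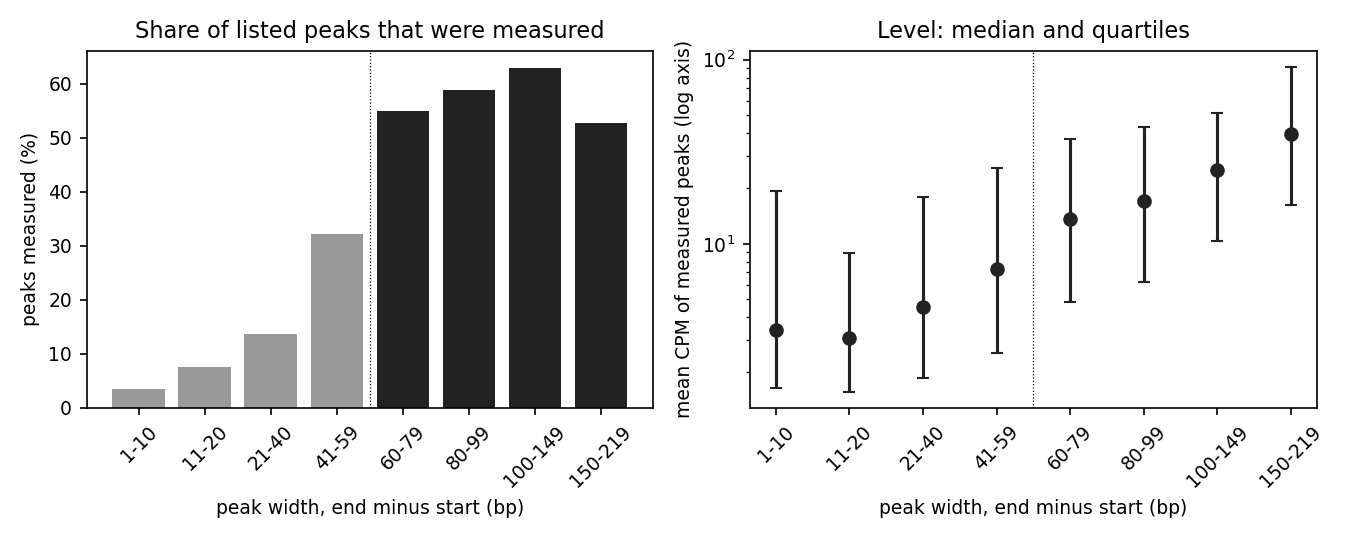
Left, the percentage of listed peaks that were measured in each class of peak width (end minus start, bp), with broad classes in black right of the dotted line. Right, the mean CPM over the 6 libraries of the measured peaks in each class on a log axis, points for medians and bars for quartiles; the median goes from 3.42 CPM at 1 to 10 bp to 39.3 CPM at 150 to 219 bp.

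The limit of 60 bp cuts through a continuous range. Just outside it, 172 of 337 peaks of 59 bp were measured, with a median of 11.4 CPM, and just inside it 173 of 371 peaks of 60 bp, with a median of 10.2 CPM. Of these, 42 (24.4%) and 40 (23.1%) were called changed between the groups by the test described below, where 24.4% of all measured peaks were. The values on both sides of the limit were close.

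Broad promoters held a similar share of the tags in listed peaks in 5 of the 6 libraries. The shares were 15.5%, 15.1% and 15.5% in the FLT3-ITD libraries and 15.4%, 17.0% and 15.1% in the double mutant. The group means were 15.3% ± 0.25 and 15.8% ± 1.05 (SD, n = 3 each), and the groups overlapped. Double-mutant replicate 2 alone lay above 16%, and without it the double-mutant mean was 15.2%. The 50 most active peaks, none of them broad, took 26.7% ± 0.67 of the tags in FLT3-ITD and 23.6% ± 0.50 in the double mutant. With those 50 removed from the total, the broad share was 20.9% ± 0.41 and 20.7% ± 1.24.

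The excess in double-mutant replicate 2 was spread over the broad class. Relative to the other 2 libraries of its group, the median broad promoter was higher there by 0.17 on the log2(CPM + 1) scale, and 71.3% of broad promoters were higher. Other peaks, weighted to the same numbers per level of activity, were higher by a median of 0.07, and 57.8% of them were higher. Double-mutant replicates 1 and 3 had medians of -0.06 and -0.12 for broad promoters, and the FLT3-ITD libraries lay between -0.03 and 0.03. The deviation of replicate 2 went up with width at matched level, from -0.08 at 1 to 10 bp through 0.07 at 21 to 40 bp to 0.17 at 60 to 79 bp and 0.21 at 100 bp or more. Summed over broad promoters, this library was the highest of its group on each of the 20 chromosomes, and on 16 of them after TMM scaling. It also had the most tags, and whether depth plays a part in the excess was not tested.

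**Figure D2:**
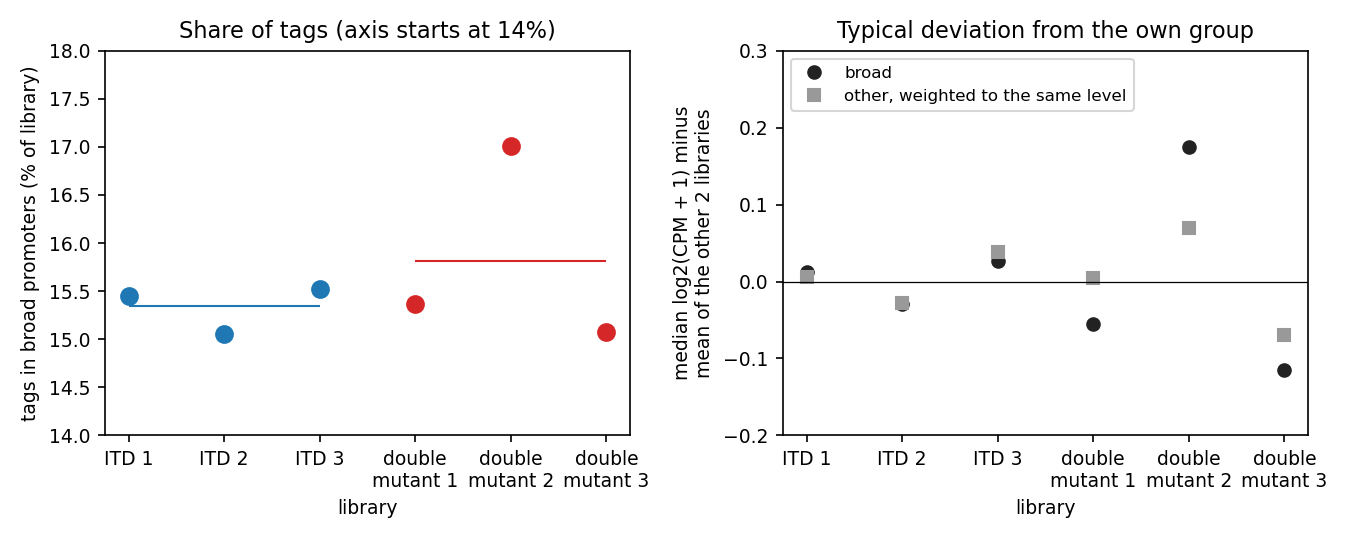
Left, of each library's tags in listed peaks, the percent in measured broad promoters, with 1 point per library and a line at each group mean (axis from 14%). Double-mutant replicate 2 stands at 17.0% and the other 5 libraries between 15.1% and 15.5%. Right, the median over peaks of log2(CPM + 1) in a library minus the mean of the other 2 of its group, for broad promoters (circles) and other peaks weighted to the same level (squares); the gap between them is widest in double-mutant replicate 2.

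Replicates differed slightly less at broad promoters than at other peaks of like activity. The spread of a peak was taken as the SD of log2(CPM + 1) within groups, pooled over both. Its median was 0.173 for broad promoters and 0.183 for other peaks weighted to the same numbers in 7 bins of mean CPM, a ratio of 0.949. Without the weighting the value for other peaks was 0.209, since they are mostly lower and low peaks vary more. The median was lower for broad promoters in each of the 7 bins, though at 10 to 20 CPM both came to 0.178. From 100 CPM upward it was 0.115 against 0.145, although other peaks in that bin were more active (median of the mean level 224 against 165 CPM). The median coefficient of variation of CPM there was 0.081 for broad promoters, where counting error alone would give 0.025. Without double-mutant replicate 2 the ratio of the medians was 0.889. The low spread was not limited to broad promoters: at matched level the median was 0.170 at 41 to 59 bp, 0.173 at 60 to 79 bp, 0.170 at 80 to 99 bp and 0.180 at 100 bp or more, against 0.217 at 1 to 10 bp.

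**Figure D3:**
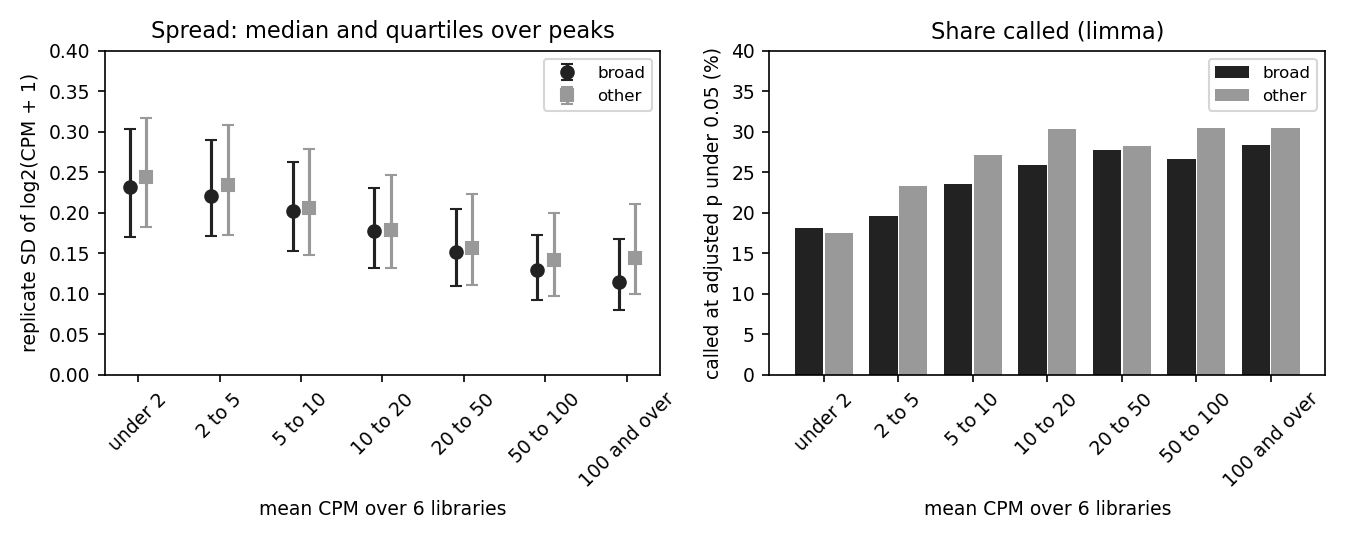
Left, replicate SD of log2(CPM + 1) by bin of mean CPM for broad (black circles) and other (grey squares) measured peaks, with medians and quartiles over peaks. Right, percent of peaks called at an adjusted p under 0.05 by limma in the same bins; broad promoters reach 28.4% and other peaks 30.4% at 100 CPM and over.

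The clearest difference from other peaks lay among the promoters that varied most. A replicate SD above 0.5 was found at 30 broad promoters (0.737%), and at 3.38% of other peaks weighted to the same level. Among peaks with a mean of at least 20 CPM, these were 4 of 1784 broad promoters and 96 of 3442 others. By width at matched level the share went from 7.90% at 1 to 10 bp through 3.54% at 21 to 40 bp and 1.17% at 41 to 59 bp to 0.592% at 60 to 79 bp, with 0.927% at 80 to 99 bp and 1.39% at 100 bp or more, the last resting on 5 promoters. In 15 of the 30, double-mutant replicate 2 was the library farthest from its group, and without it the shares were 0.442% and 2.16%. The limit of 0.5 was chosen after seeing the data. With limits of 0.4 and 0.7 the shares were 2.01% against 6.71% and 0.0737% against 1.62%.

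**Figure D4:**
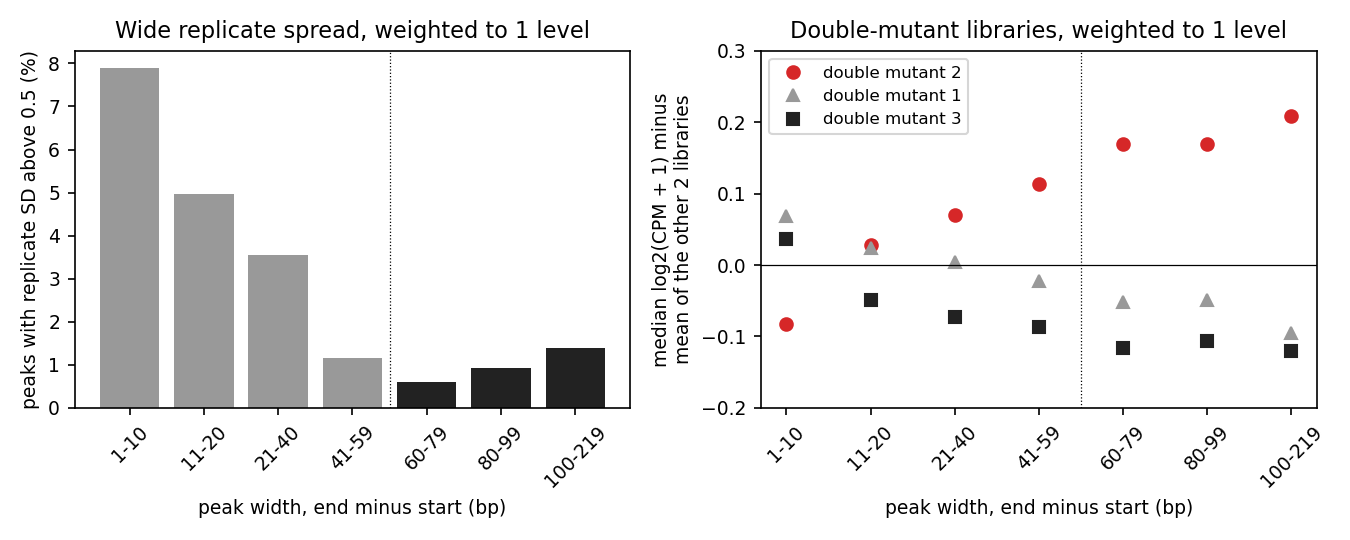
Left, percent of measured peaks with a replicate SD of log2(CPM + 1) above 0.5 by width class, each class weighted to the activity of the broad promoters; it goes from 7.90% at 1 to 10 bp to 0.592% at 60 to 79 bp. Right, median deviation of each double-mutant library from the other 2 on the log2 scale, weighted in the same way; replicate 2 goes from -0.08 at 1 to 10 bp to 0.21 at 100 to 219 bp.

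At 20 CPM or more, the most variable broad promoter was chr17:45707350-45707410 on the plus strand. Its levels were 7.61, 15.3 and 40.8 CPM in FLT3-ITD and 60.4, 1.65 and 70.5 CPM in the double mutant, so both groups spread widely and overlapped (limma adjusted p = 0.91). The same-strand peak 47 bp downstream, chr17:45707457-45707485, had 40.9, 28.4 and 27.5 CPM in FLT3-ITD and 56.3, 17.0 and 74.6 CPM in the double mutant, with replicate 2 lowest in that group at both peaks. A broad promoter that overlaps it on the minus strand, chr17:45707385-45707453, varied less, with 41.2, 35.7 and 45.3 CPM and then 44.8, 34.4 and 56.5 CPM. The fall at chr3:135271185-135271254, described below, ranked next in spread. At chr7:129210906-129210974 on the plus strand, FLT3-ITD replicate 1 stood apart with 24.4 CPM, against 68.7 and 76.7 in the other FLT3-ITD libraries and 77.4, 97.9 and 80.4 in the double mutant (limma adjusted p = 0.36).

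The group difference was tested with limma on log2(CPM + 1) over all 19162 measured peaks, with Benjamini-Hochberg adjustment over all of them and a threshold of 0.05. Differences are double mutant minus FLT3-ITD on that scale, which understates changes of low promoters. Of the 4071 broad promoters, 1007 were called changed, 24.7%, where the background over all measured peaks was 24.4%. Other peaks weighted to the same activity were called in 27.3% of cases. The groups did not overlap at 1795 broad promoters (44.1%, background 41.8%). So broad promoters were called about as often as peaks in general. Leaving out FLT3-ITD replicate 2 gave 624 called broad promoters (15.3%, other peaks weighted to the same activity 18.4%). Leaving out FLT3-ITD replicate 3 gave 666 (16.4%, weighted other peaks 18.9%), so the calls fell among other peaks too. Against a fold of 1.5, limma called 94 of the 4071 broad promoters, with 63 higher and 31 lower. The share over all measured peaks was not taken for that setting, so this count does not compare broad promoters with others.

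Rises outnumbered falls at broad promoters only under some settings: 602 were called higher (14.8%, background 14.1%) and 405 lower (9.95%, background 10.4%), whereas TMM scaling gave 550 and 544 (1094 in all, 26.9%, background 25.6%), DESeq2 394 and 403 (797 in all, 19.6%, background 18.5%), and leaving out double-mutant replicate 2 gave 581 and 650. Higher calls thus made up 59.8% of the broad calls as deposited, 50.3% after TMM scaling and 47.2% without that library. Among other peaks they made up 57.0% as deposited and 49.9% after TMM scaling, so this tilt was not particular to broad promoters. Without double-mutant replicate 2, 30.2% of broad promoters and 32.0% of other peaks weighted to the same activity were called. The median difference over all broad promoters was 0.07 as deposited, 0.02 after TMM scaling and 0.00 without double-mutant replicate 2. Leaving out FLT3-ITD replicate 2 left 379 higher and 245 lower. The lower count was 240 without FLT3-ITD replicate 3. It was 267 and 260 when replicate 1 or 3 of the double mutant was left out. Shares by direction were not taken for other peaks with a library left out. In either direction, 17.8% of broad promoters and 21.6% of weighted other peaks were called without double-mutant replicate 1. Without double-mutant replicate 3 these were 19.1% and 21.7%.

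Most changes at broad promoters were moderate. Those called higher rose by a median of 0.65 (quartiles 0.50 and 0.84), and those called lower changed by a median of -0.58 (quartiles -0.79 and -0.46). A change of at least 1, which is a doubling or halving of CPM + 1, was called at 157 broad promoters, 3.86%, with a background of 5.57%, and other peaks weighted to the same activity had 5.57% as well. Of the 157, 101 rose (background 3.19%) and 56 fell (background 2.38%). A change of at least 2 was called at 16 of the rises and 11 of the falls, with no background taken at that limit. By width at matched level, changes of at least 1 were called at 7.19% of peaks of 1 to 10 bp, 8.97% at 11 to 20 bp, 5.71% at 21 to 40 bp and 2.87% at 41 to 59 bp. Among broad promoters the values were 3.70% at 60 to 79 bp, 4.43% at 80 to 99 bp and 4.18% at 100 bp or more, so the class of 41 to 59 bp lay lowest and the gradient stopped there. The promoters called higher summed to 18451 CPM in FLT3-ITD and 28567 CPM in the double mutant, those called lower to 26169 and 17807 CPM. Since these were picked by the test, the sums only describe their size.

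**Figure D5:**
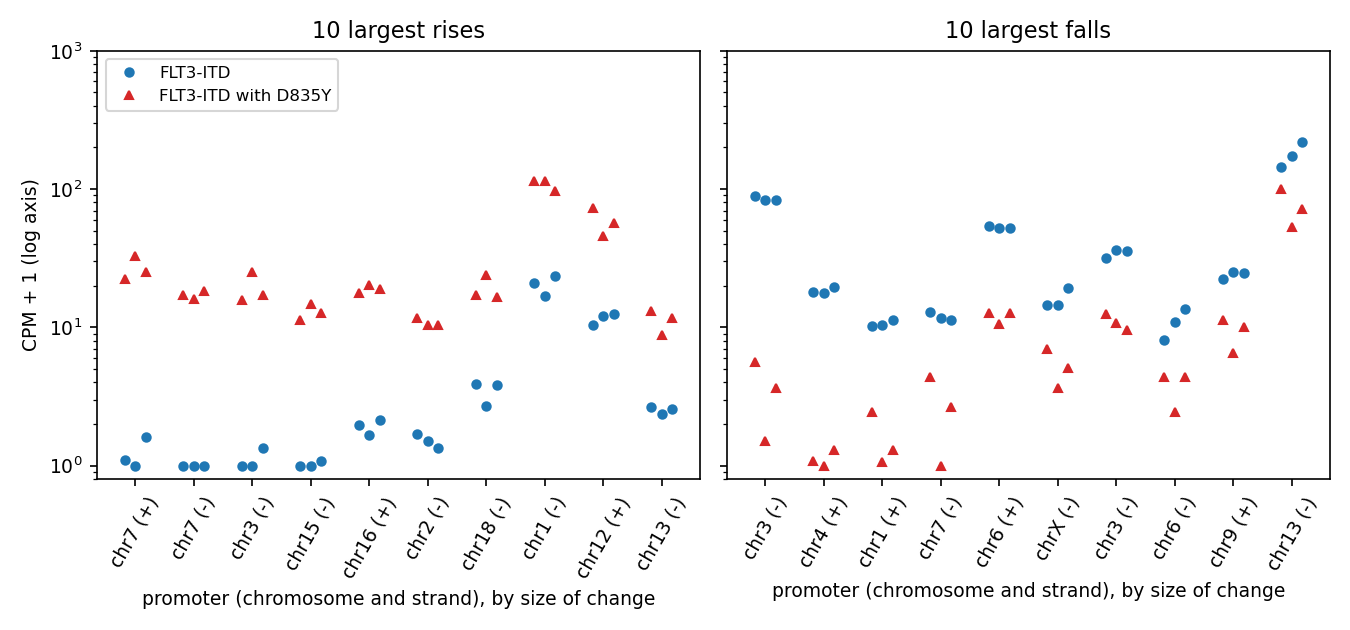
CPM + 1 on a log axis in each library for the 10 broad promoters with the largest rise (left) and the 10 with the largest fall (right), ordered by the size of the log2 change, with circles for FLT3-ITD and triangles for FLT3-ITD with D835Y. The first 4 rises start at or below 0.614 CPM in every FLT3-ITD library, while most falls start above 9 CPM and keep some level in the double mutant.

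The 10 largest rises, among called promoters averaging 5 CPM or more whose groups do not overlap, started below 3 CPM in 8 cases and at 10.7 and 19.5 CPM in the other two. Those under 1 CPM in FLT3-ITD entered the test only through the double-mutant libraries, so their calls are no independent support. At chr15:76039486-76039556 on the minus strand, the 3 FLT3-ITD libraries together held 1 tag and the 3 double-mutant libraries 432. Its levels were 0, 0 and 0.0877 CPM against 10.3, 13.7 and 11.7 CPM, and the ratio of pooled tags was 330 with an exact 95% interval of 59.0 to 13079. The interval covers counting error only and leaves out the spread between libraries, at a promoter picked for its rise. The plus-strand promoter chr16:44765866-44765941 rose from 0.975, 0.680 and 1.14 CPM to 16.9, 19.1 and 17.9 CPM, and 2 narrow peaks flanking it on the same strand, 2 and 70 bp away, went from 0.029 ± 0.051 to 2.18 ± 0.31 CPM and from 0.214 ± 0.188 to 2.78 ± 0.21 CPM (SD, n = 3 each). The minus-strand promoter chr2:84316882-84316945 rose from 0.683, 0.510 and 0.351 CPM to 10.7, 9.37 and 9.49 CPM and had no measured neighbour on its strand within 1000 bp.

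Higher up the scale, chr1:108610539-108610626 on the minus strand was the strongest of the 10 in the double mutant. It had 19.8, 16.0 and 22.7 CPM in FLT3-ITD and 114, 113 and 95.9 CPM in the double mutant, a difference of 2.42 (SE 0.14, limma adjusted p = 1.2e-07). A second broad promoter 168 bp away, chr1:108610794-108610907, rose from 21.9 ± 2.3 to 56.0 ± 5.5 CPM (SD, n = 3 each; difference 1.32), and a peak of 9 bp that lies 38 bp from the first rose from 0.633 ± 0.272 to 6.71 ± 1.42 CPM. On chr12:103592969-103593031 (plus strand) the level went from 9.46, 11.0 and 11.5 CPM to 71.4, 44.8 and 56.1 CPM. All FLT3-ITD libraries lay well below all double-mutant libraries at both loci. The promoters chr18:25645471-25645551 and chr13:4608368-4608435, both on the minus strand, rose from 2.48 ± 0.68 to 18.2 ± 4.1 CPM and from 1.53 ± 0.15 to 10.2 ± 2.2 CPM (SD, n = 3 each). The remaining 3 of the 10, 2 on chromosome 7 and 1 on chromosome 3, had 0 to 0.614 CPM in every FLT3-ITD library and 14.7 to 31.6 CPM in every double-mutant library.

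Some broad promoters had tags in the double mutant only. With 0 tags in all 3 FLT3-ITD libraries and at least 1 CPM in each double-mutant library there were 7 of 4071, and the reverse was found at 0. Among the 15091 other measured peaks the counts were 30 and 6. These counts are too small to set broad promoters apart from other peaks. The strongest of the 7 was chr7:135039092-135039161 with 16.2 CPM. Next in level were chr7:30092993-30093076 with 4.03, 4.15 and 3.76 CPM and chr7:133952648-133952745 with 2.85, 2.50 and 1.88 CPM. Relative to 0.109 CPM, which is what 3 tags are worth over the 3 FLT3-ITD libraries summed, the mean levels of these 3 were 149, 36.5 and 22.1 times that value. For the first, the exact 95% interval of the ratio of summed tags, which covers counting error only, starts at 119.6. The other 4, on chromosomes X, 10, 14 and 13, had means of 1.30 to 2.28 CPM. They were picked for this pattern, so no test is given.

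Most of the largest falls left a residual level. At chr6:17015129-17015233 (plus strand) the FLT3-ITD libraries had 53.5, 51.7 and 51.1 CPM and the double-mutant libraries 11.7, 9.66 and 11.8 CPM, a difference of -2.15 (SE 0.12, limma adjusted p = 1.4e-07). The libraries of each group lay close together there. The plus-strand promoter chr1:9788204-9788297 fell from 9.26, 9.35 and 10.4 CPM to 1.43, 0.0715 and 0.297 CPM, and chr3:146444315-146444395 on the minus strand from 30.5, 35.5 and 34.4 CPM to 11.6, 9.73 and 8.60 CPM. On chromosome X, the minus-strand promoter chrX:163645344-163645469 fell from 15.2 ± 2.8 to 4.22 ± 1.66 CPM (SD, n = 3 each) together with another broad promoter 434 bp away, chrX:163645903-163645995, at 14.9 ± 4.3 and 6.54 ± 1.30 CPM (limma adjusted p = 0.0021).

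Double-mutant replicate 2 was the lowest library of its group at most of these falls. At chr3:135271185-135271254 (minus strand) the levels were 88.3, 82.3 and 83.0 CPM against 4.61, 0.501 and 2.67 CPM. At chr7:59261162-59261242 on the minus strand they were 12.0, 10.7 and 10.3 CPM against 3.36, 0 and 1.68 CPM. The latter passed with a limma adjusted p of 0.028, but not without FLT3-ITD replicate 1 (adjusted p = 0.087), 2 (0.079) or 3 (0.079) or without double-mutant replicate 3 (0.082), nor by DESeq2 (0.19), while leaving out double-mutant replicate 2 gave 2.2e-05. Further falls were chr6:87793620-87793686 on the minus strand, from 9.84 ± 2.71 to 2.72 ± 1.11 CPM, and chr9:108242107-108242251 on the plus strand, from 23.0 ± 1.5 to 8.27 ± 2.41 CPM (SD, n = 3 each). The smallest of the 10 falls was at chr13:23713886-23713975 (minus strand), with 143, 173 and 219 CPM against 98.8, 52.3 and 70.5 CPM (limma adjusted p = 0.0083). The tenth, on chromosome 4, fell from 17.5 ± 0.96 to 0.127 ± 0.153 CPM. That promoter met the minimum for the test only through the FLT3-ITD libraries. The same holds for chr1:9788204-9788297, chr3:135271185-135271254 and chr7:59261162-59261242, which stayed below 1 CPM in at least 1 double-mutant library. Their calls, and those with a library left out, are therefore no independent support.

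Of the 5 most active broad promoters, 3 were called changed, by -0.35, -0.69 and 0.31 on the log2 scale. The first in rank, chr5:129526068-129526128 on the plus strand, had 1458, 1374 and 1396 CPM in FLT3-ITD and 1042, 1222 and 1070 CPM in the double mutant, 1.27 times less. Its call (limma adjusted p = 0.030) was lost without any 1 of the FLT3-ITD libraries or double-mutant replicate 1 or 3, with adjusted p between 0.058 and 0.12. The next, chr9:66793864-66793950 on the plus strand, fell from 1417, 1445 and 1472 CPM to 997, 681 and 1064 CPM (difference -0.69, SE 0.15, limma adjusted p = 0.0054). At chr8:73034221-73034321 (minus strand) the level was 714 ± 37 and 884 ± 45 CPM (SD, n = 3 each; limma adjusted p = 0.043). That call was lost with TMM scaling (adjusted p = 0.11), with edgeR (0.11) and DESeq2 (0.13), and without any 1 library except double-mutant replicate 2 (0.062 to 0.17). The promoters chr13:55423352-55423414 (984 ± 45 and 826 ± 78 CPM) and chr16:18248704-18248785 (792 ± 25 and 826 ± 19 CPM) did not pass, with limma adjusted p of 0.10 and 0.69. The first of them did pass with TMM scaling (0.041), edgeR (0.045) and DESeq2 (0.030), and without double-mutant replicate 2 (0.0095).

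The 5 widest measured promoters, of 188 to 215 bp, spanned low to high activity and none passed the test. The widest, chr18:56867379-56867594 on the plus strand, had 173, 192 and 184 CPM in FLT3-ITD and 147, 215 and 126 CPM in the double mutant (limma adjusted p = 0.40). Without double-mutant replicate 2, its highest library, the adjusted p was 0.0031 and the level was lower in the double mutant. The minus-strand promoter chr10:79336978-79337184, of 206 bp, had 1.37, 1.70 and 2.63 CPM against 2.43, 2.93 and 2.18 CPM. Between these lay chr8:127473065-127473272 with 21.8 ± 4.7 and 25.8 ± 7.4 CPM, chr19:5801798-5801998 with 15.5 ± 3.8 and 17.1 ± 2.9 CPM, and chr2:32006594-32006782 with 64.2 ± 2.2 and 65.3 ± 7.0 CPM (SD, n = 3 each). The groups overlapped at all 5. Of all 29 measured promoters of 150 bp or more, 4 were called (13.8%, background 24.4%), 2 in each direction.

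At 20 CPM or more, the smallest differences were at chr16:31201236-31201329 (minus strand), chr1:174078241-174078307 (plus strand) and chr18:30432483-30432585 (plus strand). The first had 53.3, 52.5 and 52.9 CPM in FLT3-ITD and 48.1, 64.2 and 48.0 CPM in the double mutant, replicate 2 again being the highest. The second had 68.4 ± 4.1 and 68.4 ± 2.7 CPM, and the third 26.5 ± 0.88 and 26.6 ± 1.42 CPM (SD, n = 3 each).

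Broad promoters differed between the groups by chromosome, and other peaks of the same chromosomes moved with them. Their summed level separated all 3 libraries of 1 group from all 3 of the other on 16 of 20 chromosomes, 11 higher and 5 lower in the double mutant, and after TMM scaling on 19, 12 higher and 7 lower. Chromosome 19 stood at one end, with 4650, 4589 and 4690 CPM against 6287, 7252 and 6137 CPM, and 88 of its 145 broad promoters rose while 1 fell, beside 275 of 650 other peaks that rose and 20 that fell. Chromosome 9 stood at the other, with 12708, 12525 and 12814 CPM against 9337, 9425 and 9180 CPM, and 84 of its 228 broad promoters fell while 3 rose, beside 220 of 908 other peaks that fell and 34 that rose. The share called was 61.4% of broad and 45.4% of other peaks on chromosome 19 and 38.2% and 28.0% on chromosome 9, with no test of the difference. The median difference of broad and of other peaks had the same sign on all 20 chromosomes, as deposited, and broad promoters made up 18.2% to 25.3% of the measured peaks of a chromosome.

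A broad promoter was often the main start of its neighbourhood. Of the 4071, 2081 (51.1%) had another measured peak on the same strand within 1000 bp, against 52.3% of other peaks weighted to the same activity. Among those with such neighbours, the broad promoter was more active than each of them in 67.0% of cases, and other peaks were in 33.9%, where no weighting was applied and broad promoters are the more active class. An opposite-strand peak within 500 bp upstream, as at divergent promoters, was found for 20.2% of broad promoters and 18.1% of other peaks weighted to the same activity. Where a broad promoter and its nearest same-strand neighbour were both called, 172 of 177 (97.2%) moved in the same direction, as did 53 of 56 (94.6%) with the nearest divergent peak. For other peaks the values were 97.8% and 94.8%. Where the broad promoter was called, whatever its neighbour did, the sign was the same in 410 of 491 same-strand pairs (83.5%, other peaks 85.6%) and 136 of 177 divergent pairs (76.8%, other peaks 80.5%). Broad promoters thus gave values close to those of other peaks, and some pairs hold 2 broad promoters.

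Within such groups of starts, the balance between a broad promoter and its neighbours sometimes shifted. For every measured peak with same-strand neighbours within 1000 bp, the log2(CPM + 1) level was taken relative to that of its summed neighbours and tested with limma over all 10739 such peaks, a test added after seeing the data. Of 2081 broad promoters 177 were called, 8.51% with a background of 8.32%. Of these, 69 shifted toward the broad promoter in the double mutant and 108 away from it, a split not taken for other peaks. Without FLT3-ITD replicate 1, 2 and 3 the count was 132 (6.34%, other peaks 6.20%), 63 (3.03%, other peaks 2.91%) and 58 (2.79%, other peaks 3.35%). Without double-mutant replicate 1, 2 and 3 it was 78 (3.75%, other peaks 3.70%), 92 (4.42%, other peaks 4.15%) and 53 (2.55%, other peaks 2.85%). So the calls fell among other peaks too. A peak and its neighbours each enter with their own test, so these counts are not independent.

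The clearest shifts, taken from those with means of at least 5 CPM on both sides, went in both directions. At chr13:47201158-47201243 on the minus strand the broad promoter rose from 13.9, 10.9 and 15.4 CPM to 19.6, 27.6 and 23.6 CPM, while its 4 neighbours together had 39.5, 33.3 and 35.2 CPM and then 20.5, 33.3 and 18.4 CPM. The groups did not overlap at the promoter, and at the neighbours replicate 2 of both groups met at 33.3 CPM. The shift was 1.38 (SE 0.22, limma adjusted p = 0.0045). At chr18:50190631-50190697 on the plus strand the broad promoter fell from 14.3, 15.6 and 15.4 CPM to 8.89, 4.58 and 5.44 CPM, and its 2 neighbours summed to 6.63, 4.59 and 5.79 CPM and then 7.97, 7.51 and 8.40 CPM, a shift of -1.62 (SE 0.24, adjusted p = 0.0031). The minus-strand promoter chr2:25995988-25996050 went from 50.9 ± 1.9 to 35.1 ± 3.6 CPM and its neighbours from 13.8 ± 3.6 to 25.7 ± 3.6 CPM (SD, n = 3 each). At these 3 loci the call held with each library left out in turn, at adjusted p of 0.0017 to 0.025. Among other large shifts it also held at chr9:92145033-92145112, chr7:133943868-133943944 and chr1:108610794-108610907. It was lost without some of the libraries at chr7:129210906-129210974, chr4:132089484-132089567, chr6:28373539-28373640 and chr1:173612135-173612202. All these loci were picked from calls on the same libraries, so the calls that held are no independent support.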

How the data were processed

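CAGE libraries of 6 Ba/F3 samples, 3 per group by their titles, were analysed. For each of 158966 peaks the authors deposited a CPM value per library. TopHat2 2.0.14, edgeR 3.24.3 and the builds hg19 and mm9 are named, with no role, per the submitters' processing notes; the making of the peak list and the treatment of multiply mapping tags are not stated there. Divided by the smallest value above 0 of its library, 100% of the CPM came out whole (tolerance 0.01). This gave 5884258 to 13977941 tags per library in the listed peaks, over which the CPM of a library sum to 1000000.

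The group difference on log2(CPM + 1) was tested in R 4.3.3 by limma 3.58.1 with its trend and robust settings, group as the only term, two-sided, adjusted by Benjamini-Hochberg. Peaks entered at 1 CPM in at least 3 libraries. Alternatives were edgeR 4.0.16 and DESeq2 1.42.0 on the recovered tags, TMM scaling over measured peaks, a pseudocount of 0.25, other filters, a width of at least 80, a replicate term, a fold of 1.5 and each library left out. Comparisons at matched level weight other peaks to the broad counts in bins of mean CPM divided at 2, 5, 10, 20, 50 and 100, and are descriptions with no test. The limma test was tried on simulated tags.

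Promoters named were the 10 largest rises and 10 largest falls (called, mean of at least 5 CPM, groups not overlapping), the 5 most active, the 5 widest, and, at a mean of at least 20 CPM, the 3 most variable and 3 least changed. Those named for tags in 1 group only or for their balance, and neighbours, were chosen after their values were seen. The members and lists were chosen with earlier results of these data known. No genome of the build of the files was used, so the planned gene lists, markers and sequences were not analysed.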

Additional observations from a re-analysis of the deposited data

How the results depend on the processing

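The number of broad promoters called changed was 1007. Against a fold of 1.5 it was 94 (63 higher, 31 lower), with no share over all measured peaks taken. At a width of at least 80, where 1512 were tested, it was 395 (234 higher, 161 lower). DESeq2 called 394 higher, and the cause was not tested. Leaving out single libraries gave 624 to 1231 changed, 379 to 581 higher and 240 to 650 lower, with no shares of other peaks by direction. Of the 1007, 613 were among the 624 left without FLT3-ITD replicate 2 and 911 among the 1231 without double-mutant replicate 2. TMM scaling, edgeR, the pseudocount and both filters gave counts within 1.5 times of those reported. Of 322 refits of 23 called promoters (the 10 largest rises, the 10 largest falls and 3 of the most active), 296 kept direction and call, 26 lost the call and 0 changed direction. The rises and falls had been picked from these libraries as called, with groups not overlapping. Leaving out a library could therefore not reverse them, and the kept calls are no independent support. The share of tags was 20.9% and 20.7% with the total taken without the 50 most active peaks, and 6.31% and 6.54% at a width of at least 80; left-out libraries gave 15.3% to 15.5% in FLT3-ITD and 15.2% to 16.2% in the double mutant. The ratio of replicate spread, 0.949, was 0.889 to 0.973 with a library left out. The percent called relative to other peaks of like level, 0.906, was 0.826 to 0.945 with a library left out. With the replicate number added to the model as a block, 829 broad promoters were called and that ratio was 0.827. For start-site balance, 117 in place of 177 were called with the block (5.62%, other peaks 5.31%), and 53 to 132 with a library left out. Pairing by number was not assumed, since the correlations between deviations of libraries sharing a number were -0.0053, 0.019 and 0.19. Depth limits promoters near 1 CPM, where 1 tag is worth up to 0.170 CPM.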
